A study of Mus musculus with 8 samples.

Results

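Chemokines are small secreted proteins that steer migrating cells, and chemokine receptors are the G protein-coupled receptors that read them. Their genes were taken from the count files by symbol: every row named Ccl, Cxcl, Ccr, Cxcr, Cx3cl, Cx3cr, Xcl or Xcr followed by a digit. This gave 59 of 22609 genes, of which 39 encode ligands and 20 receptors. RNA came from paw tissue of 4 female and 4 male C57BL/6J mice. According to the labels, both sexes carried the same treatment, 12 days of prolactin (PRL, a pituitary hormone) with 0.1 µg injected into the plantar side once a day. Single injections and PBS, which the protocol also names, are not analysed here. Every value below therefore belongs to the prolactin-treated paw and the comparison is female against male. The labels used here give no age, and the tissue is a mixture of skin, muscle, vessels and immune cells.

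The family name follows the spacing of the first cysteines of the protein, which gives the CC, CXC, CX3C and XC classes. Ligands are held on heparan sulfate of cell surfaces and matrix, and most receptors signal through the inhibitory G protein Gi. Some ligands are made constantly in skin and place resident cells, such as Cxcl12 and Cxcl14. Others are induced by cytokines through NF-kB or STAT transcription factors and recruit monocytes, neutrophils or T cells.

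Promoters of 6 ligands are shown because they hold the letters of motifs that a cytokine signal or a prolactin signal can use, and because these ligands differed widely in how much they varied between libraries. Each sequence is the 250 bases before the annotated start site, from RefSeq on GRCm38.p6, written 5′ to 3′ on the strand of the gene. Capitals mark an NF-kB type motif (GGGA, then 2 letters of any kind, then TTCC, or its reverse complement) in Cxcl1, Cxcl2, Cxcl3 and Cxcl10, and TTCNNNGAA (the motif of STAT factors, to which the prolactin receptor signals) in Cxcl14 and Ccl17.
Cxcl1 (chr5:90890995-90891244, + strand): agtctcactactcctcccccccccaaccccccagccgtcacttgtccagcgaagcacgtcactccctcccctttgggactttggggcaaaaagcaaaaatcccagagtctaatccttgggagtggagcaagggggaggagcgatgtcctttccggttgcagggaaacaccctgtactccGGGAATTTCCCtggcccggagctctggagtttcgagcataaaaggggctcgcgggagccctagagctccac
Cxcl2 (chr5:90903649-90903898, + strand): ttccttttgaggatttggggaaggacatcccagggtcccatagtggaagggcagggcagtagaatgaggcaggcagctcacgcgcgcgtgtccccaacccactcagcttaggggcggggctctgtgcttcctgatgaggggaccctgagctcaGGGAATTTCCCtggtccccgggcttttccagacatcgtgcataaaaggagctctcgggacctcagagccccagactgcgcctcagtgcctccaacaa
Cxcl3 (chr5:90785851-90786100, + strand): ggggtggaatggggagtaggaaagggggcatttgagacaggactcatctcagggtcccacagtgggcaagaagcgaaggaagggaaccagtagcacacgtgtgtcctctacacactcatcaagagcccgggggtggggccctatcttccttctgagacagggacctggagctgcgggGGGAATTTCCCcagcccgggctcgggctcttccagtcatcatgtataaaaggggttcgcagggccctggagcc
Cxcl10 (chr5:92348890-92349139, - strand): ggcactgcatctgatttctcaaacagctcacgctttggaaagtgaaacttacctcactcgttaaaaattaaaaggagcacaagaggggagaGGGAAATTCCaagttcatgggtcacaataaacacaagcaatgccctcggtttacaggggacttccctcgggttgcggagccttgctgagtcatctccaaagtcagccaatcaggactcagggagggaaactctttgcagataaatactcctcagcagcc
Cxcl14 (chr13:56296552-56296801, - strand): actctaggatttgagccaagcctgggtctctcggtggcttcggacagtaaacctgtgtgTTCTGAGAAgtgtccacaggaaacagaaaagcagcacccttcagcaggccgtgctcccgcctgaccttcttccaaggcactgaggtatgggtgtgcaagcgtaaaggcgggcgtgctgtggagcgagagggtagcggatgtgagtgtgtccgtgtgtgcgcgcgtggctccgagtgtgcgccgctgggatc
Ccl17 (chr8:94810203-94810452, + strand): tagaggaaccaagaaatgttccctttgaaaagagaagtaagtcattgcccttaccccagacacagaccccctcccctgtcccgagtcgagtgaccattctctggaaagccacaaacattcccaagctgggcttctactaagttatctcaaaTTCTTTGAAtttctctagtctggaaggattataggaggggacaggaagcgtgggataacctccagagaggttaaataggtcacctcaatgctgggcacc

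Both strands were searched. In Cxcl1, Cxcl2 and Cxcl3 the forward and reverse matches of the NF-kB motif overlap and form one run, which starts at position -71, -97 and -73 from the start site. In Cxcl10 the match starts at -159. The STAT motif starts at -191 in Cxcl14 and at -99 in Ccl17. RefSeq promoter entries matched 43 of the 59 members, with 50 windows. The NF-kB motif was present in 6 of these 50 windows (12%) and in 397 of all 32851 promoter windows of the same length (1.21%). Beside the 4 shown, Ccl1 and Ccr3 held it. The STAT motif was present in 4 member windows (8%), those of Ccl17, Cxcl14, Ccr6 and Ccr1l1, and in 7.02% of all windows. A TATAAA motif was present in 14 member windows (28%) and in 12.4% of all windows. The letters GAGGAAGT, a form of the site of the myeloid factor PU.1, were present in 1 member window (Cxcr3) and in 2.44% of all windows. These matches describe the letters of the windows and no binding was measured.

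The counts in genes summed to 16753528 to 24993744 per library in females and 18183645 to 20416187 in males. Members took 0.0808 to 0.170% of them in females and 0.0968 to 0.138% in males. Levels are in CPM, a gene's counts relative to the library's total, scaled between libraries by TMM. Keratinocyte and fibroblast markers were high in all 8 libraries. Fast skeletal muscle markers ran from a mean log2 CPM of 0.74 in female replicate 3 to 10.08 in male replicate 2. Macrophage markers, as a mean log2 CPM over 9 genes, stood at 6.49, 5.51, 5.33 and 7.03 in female replicates 1 to 4, against 6.32, 6.30, 6.34 and 6.24 in male replicates 1 to 4. The females thus lay on both sides of the males, which were close to each other. In such bulk tissue, fewer cells of a type and less RNA per cell cannot be told apart.

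Of the 59 members, 40 (27 ligands and 13 receptors) had enough counts to be tested between the sexes. Another 11 had a few counts and 8 ligands had 0 counts in every library. Each of the 20 receptors had at least 1 count. In the GENCODE M21 annotation 14 members lie on chromosome 11, 12 on chromosome 9 and 11 on chromosome 5, mostly CC ligands on chromosome 11, receptors on chromosome 9 and CXC ligands on chromosome 5. A total of 17 members averaged at least 10 CPM and 8 at least 50 CPM. Levels of different genes were set side by side as CPM per kb of the longest coding transcript, with lengths from the GENCODE M21 annotation of GRCm38, a later build than the mm9 of the counts. On this scale the ligands Ccl8, Ccl6, Cxcl12, Ccl2, Cxcl14 and Ccl11 led, followed by the receptor Cxcr7, then Ccl9, Ccl7 and the receptor Ccr2. With exon unions as lengths, the same 10 members were the highest, in another order.

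**Figure D1:**
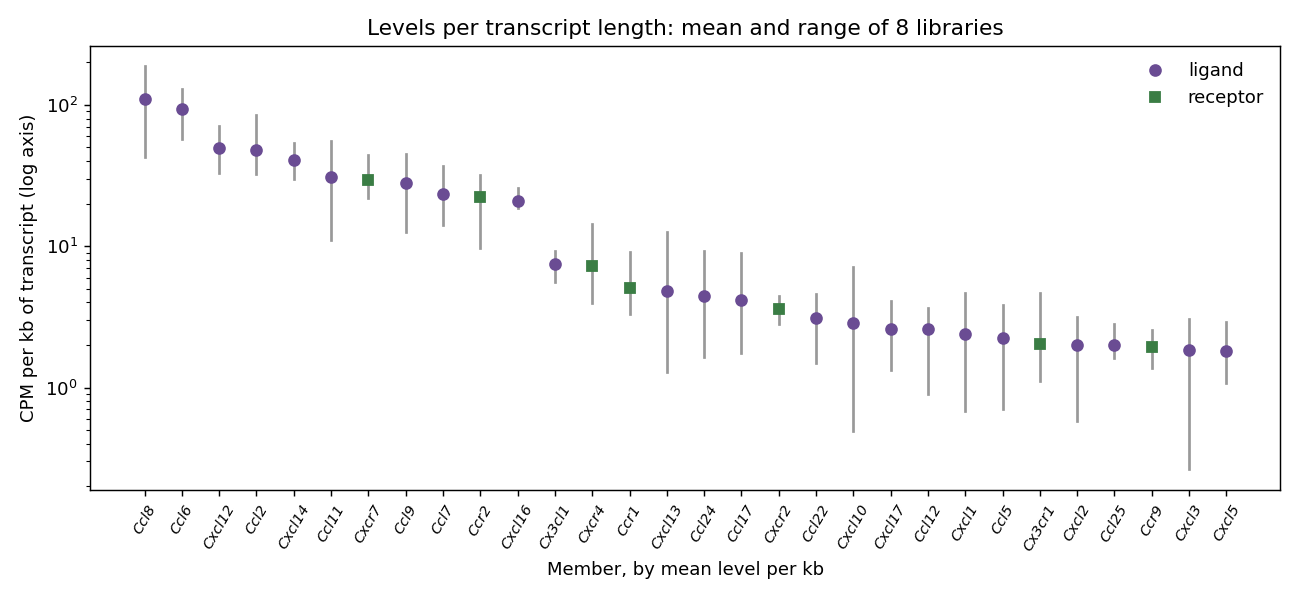
Mean level per transcript length of the 30 members highest on that scale (circles, ligands; squares, receptors), with grey lines from the lowest to the highest of the 8 libraries and a log axis in CPM per kb. Ccl8 averaged 110.2 CPM per kb and Cxcl12 49.6, while the neutrophil attractants Cxcl1, Cxcl2 and Cxcl3 averaged 2.38, 1.998 and 1.84.

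Ccl8, a monocyte chemoattractant that in mice acts on Ccr8, averaged 110.2 CPM per kb and ranged from 42.9 to 188 over the 8 libraries. Ccl6, a CC ligand of rodents made by myeloid cells, averaged 93.2 CPM per kb (range 57.6 to 129.5). The third, Cxcl12, the stromal ligand of Cxcr4 and Cxcr7, averaged 49.6 CPM per kb (range 32.9 to 71.3). Within libraries, Ccl8 stood above Ccl6 in 5 of 8, whereas Ccl6 stood above Cxcl12 in 8 of 8. Some ligands that attract T cells were lower on the same scale, where Ccl17 averaged 4.15, Ccl22 3.105, Ccl5 2.24 and Ccl20 0.243 CPM per kb. Cxcl16, the ligand of Cxcr6, averaged 21.03 CPM per kb. Among receptors, Cxcr7 averaged 29.5 CPM per kb, Ccr2 22.2, Cxcr4 7.296 and Ccr1 5.08. The next, Cxcr2, stood at 3.58 and Cx3cr1 at 2.03 CPM per kb.

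Between the sexes, no member passed the test. edgeR's quasi-likelihood test (Benjamini-Hochberg adjustment over all 14790 tested genes, calls under 0.05) called 0 of the 40 tested members, against 14 genes or 0.0947% of all tested (0.0406% higher in females and 0.0541% higher in males). At an unadjusted p under 0.05 there was 1 member, Ccl2 (2.5% of the 40), against 6.53% of all tested genes. DESeq2 called 0 members (0.757% of all genes) and limma-voom 0 (0.108%). The sexes did not overlap for 0 members, against 4.73% of all tested genes. Of the 40 log2 fold changes 20 lay above 0 and 20 below, with a median of -0.01, beside 0.01 over all tested genes. These tests cannot show that members are equal: the SE of single members ran up to 0.94 on the log2 scale, for Cxcl9.

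**Figure D2:**
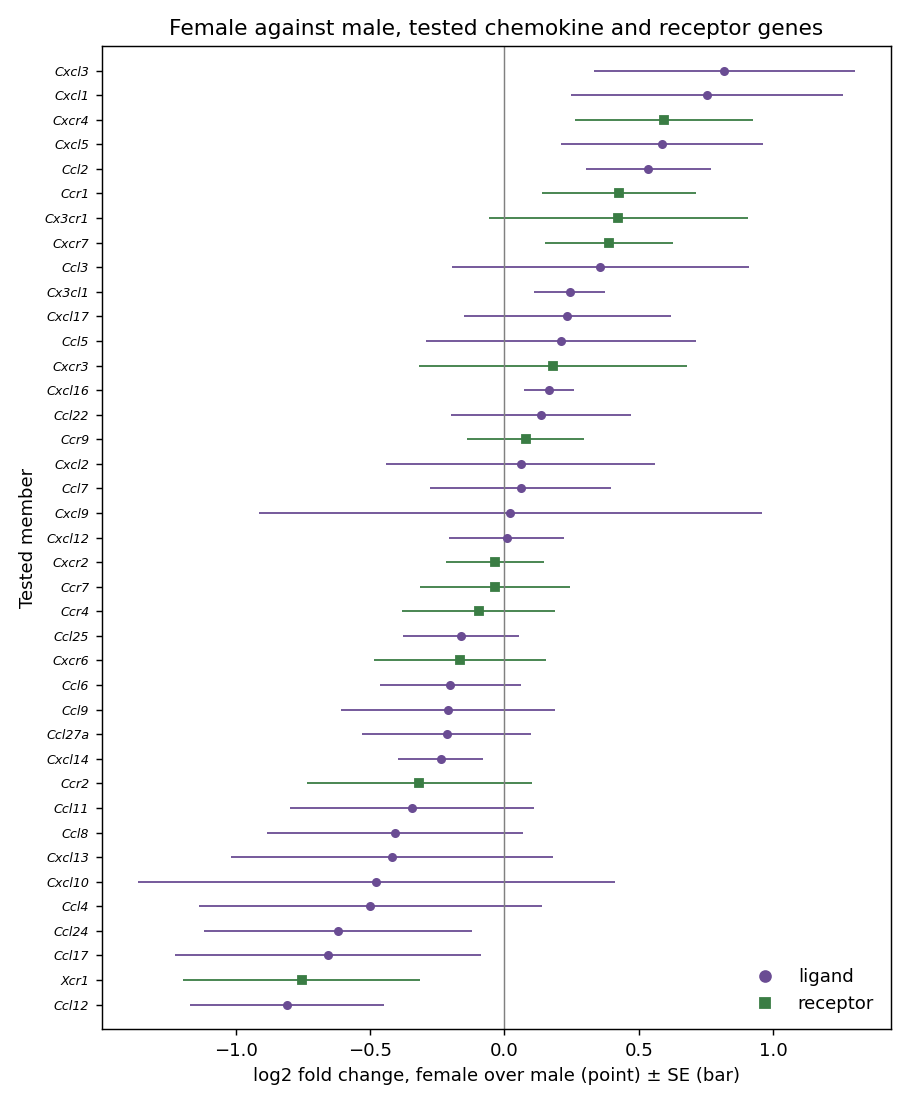
Log2 fold change, female over male, of each of 39 tested members (circles, ligands; squares, receptors) with bars of 1 SE either way, ordered by size. Values run from -0.81 for Ccl12 to 0.82 for Cxcl3, and no member was called.

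Of the constitutive ligands of stroma and epithelium, Cxcl12 and Cxcl16 had the narrowest ranges among males of all tested members, 0.17 each on the log2 scale. Cxcl12 had 298, 185, 235 and 401 CPM in female replicates 1 to 4, against 257, 279.6, 288 and 288 CPM in male replicates 1 to 4. The males lay within a narrow band, and the females lay on both sides of it (edgeR log2 fold change 0.01 with SE 0.21 and adjusted p = 0.999). Cxcl14, which is made by keratinocytes and fibroblasts, had 54.8, 59.3, 80.4 and 78.5 CPM in female replicates 1 to 4, against 77.03, 69.1, 98.5 and 77.1 CPM in male replicates 1 to 4 (edgeR log2 fold change -0.24 with SE 0.16 and adjusted p = 0.906). Female replicates 1 and 2 lay below every male and male replicate 3 above every female, with the other libraries between. Cxcl16, a membrane-bound ligand of Cxcr6, had 53.02, 56.4, 61.3 and 69.4 CPM in female replicates 1 to 4, against 55.3, 50.3, 51.9 and 56.5 CPM in male replicates 1 to 4 (edgeR log2 fold change 0.17 with SE 0.09 and adjusted p = 0.843). Of the females 2 exceeded every male. Over the 8 libraries it had the narrowest range of all members with a mean of at least 2 CPM, 0.46 on the log2 scale, and 19.0% of its 50-base windows also occur in transcripts of the gene Zmynd15. Cx3cl1, the membrane-bound ligand of Cx3cr1, had 25.3, 30.6, 27.5 and 23.3 CPM in female replicates 1 to 4, against 23.9, 18.6, 21.3 and 26.3 CPM in male replicates 1 to 4 (edgeR log2 fold change 0.24 with SE 0.13 and adjusted p = 0.828). Of the males, 2 lay within the female range and 2 below it. Cxcl17, a ligand best known from mucosa, had 1.24 to 3.13 CPM in females and 1.02 to 2.302 CPM in males. As a group, these 5 ligands summed to 432, 333, 407 and 575 CPM in female replicates 1 to 4, against 415, 419, 462 and 450 CPM in male replicates 1 to 4.

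**Figure D3:**
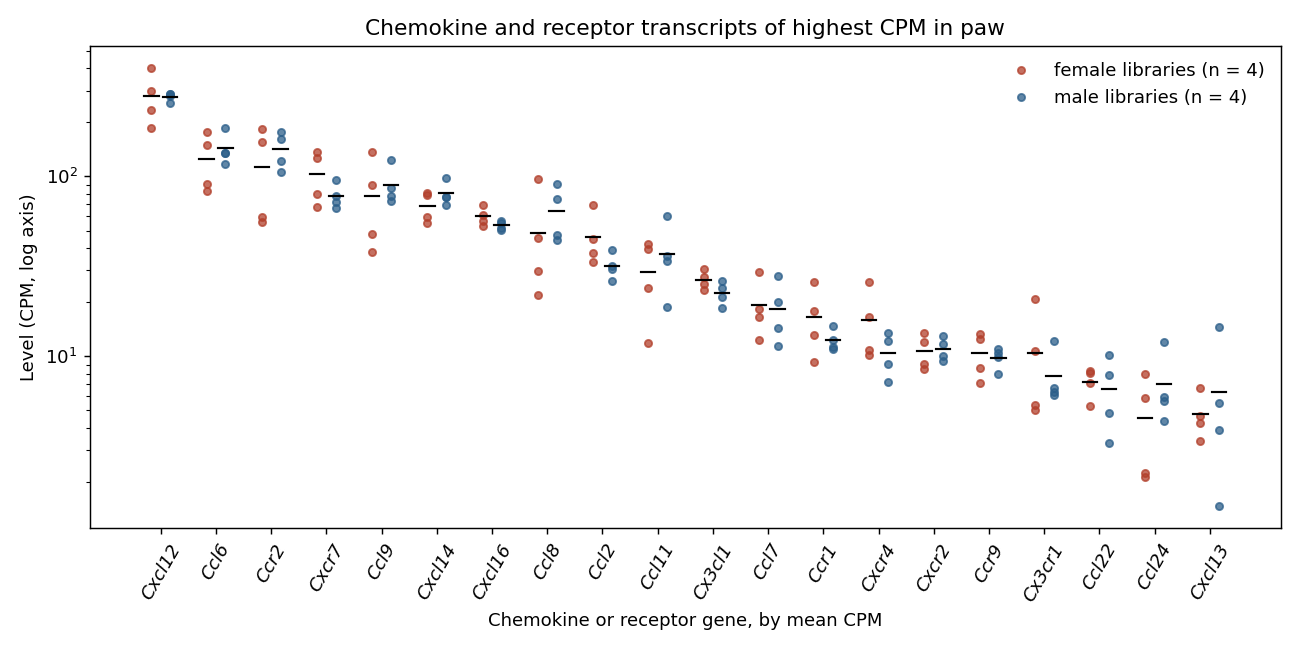
CPM (log axis) in each library of 20 members with high mean CPM, with females (red) left of males (blue) and a black line at each group mean. Male points of Cxcl12 and Cxcl16 lie close together, while female points of Ccr2, Ccl9 and Ccl8 spread widely; CPM is not corrected for length and does not order genes by level.

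Of 6 tested ligands that attract monocytes and eosinophils, 5 (83.3%) had a wider log2 range in females than in males, beside 65.2% of all tested genes. The ranges of the sexes were close for Ccl7 (1.25 in females and 1.29 in males) and Ccl11 (1.81 and 1.66). Ccl2, the main ligand of Ccr2, had 44.8, 37.4, 33.4 and 69.1 CPM in female replicates 1 to 4, against 26.2, 30.5, 31.96 and 38.8 CPM in male replicates 1 to 4. Its mean was 46.2 ± 16.02 CPM over the females and 31.9 ± 5.22 CPM over the males (SD, n = 4), and 2 females exceeded every male while the other two lay among the males (edgeR log2 fold change 0.54 with SE 0.23 and adjusted p = 0.761). Its unadjusted p of 0.0486 was the smallest of the family, and without female replicate 4 its log2 fold change was 0.26. Ccl12, another ligand of Ccr2 in mice, had 1.12, 0.785, 0.486 and 1.66 CPM in female replicates 1 to 4, against 1.39, 1.87, 1.91 and 1.96 CPM in male replicates 1 to 4 (edgeR log2 fold change -0.81 with SE 0.36 and adjusted p = 0.766). It lay the other way, with 3 females under every male and female replicate 4 among the males. Ccl7, which also binds Ccr2, had 12.4 to 29.5 CPM in females and 11.4 to 27.97 CPM in males (edgeR log2 fold change 0.06 with SE 0.34 and adjusted p = 0.999). Ccl8 had 45.7, 29.8, 21.9 and 96.2 CPM in female replicates 1 to 4, against 44.1, 47.1, 74.5 and 91.05 CPM in male replicates 1 to 4 (edgeR log2 fold change -0.41 with SE 0.48 and adjusted p = 0.999). Female replicate 4 held the highest value and female replicate 3 the lowest. The eosinophil attractants Ccl11 and Ccl24, ligands of Ccr3, had 11.9 to 42.1 CPM in females and 18.9 to 59.9 CPM in males for Ccl11 and 2.12 to 7.94 CPM in females and 4.39 to 11.95 CPM in males for Ccl24. Their highest value was in male replicate 4 and their lowest in female replicate 2. Ccr3 itself had too few counts to be tested, with 23 counts over the females and 39 over the males.

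Ccl6 and Ccl9, neighbouring genes on chromosome 11 whose products act on Ccr1, varied in the same libraries. Ccl6 had 149, 82.9, 90.98 and 177 CPM in female replicates 1 to 4, against 136, 117, 135 and 187 CPM in male replicates 1 to 4 (edgeR log2 fold change -0.20 with SE 0.26 and adjusted p = 0.999). Ccl9 had 89.2, 47.8, 37.9 and 136 CPM in female replicates 1 to 4, against 86.5, 72.9, 77.6 and 123 CPM in male replicates 1 to 4 (edgeR log2 fold change -0.21 with SE 0.40 and adjusted p = 0.999). For both, female replicates 2 and 3 were the lowest of the 8 libraries. Their receptor Ccr1, found on monocytes, macrophages and neutrophils, had 17.9, 13.1, 9.31 and 25.7 CPM in female replicates 1 to 4, against 12.3, 11.3, 10.9 and 14.6 CPM in male replicates 1 to 4 (edgeR log2 fold change 0.43 with SE 0.29 and adjusted p = 0.908). Female replicate 4 was the highest and female replicate 3 the lowest. The related CC ligands of activated macrophages and T cells were low: Ccl3 had 0.589 to 3.01 CPM in females and 0.481 to 1.47 CPM in males, Ccl4 0.236 to 1.195 CPM in females and 0.267 to 1.15 CPM in males and Ccl5 0.53 to 2.04 CPM in females and 0.374 to 1.58 CPM in males. None of these 3 passed, and in each female replicate 4 was the highest library.

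Among receptors of myeloid cells, Ccr2 and Cx3cr1 had a wide log2 range in females (1.72 and 2.03), while that of Cxcr2 was 0.65. Ccr2, the receptor that brings inflammatory monocytes into tissue, had 155, 59.4, 55.8 and 184 CPM in female replicates 1 to 4, against 160.4, 106, 122 and 176 CPM in male replicates 1 to 4 (edgeR log2 fold change -0.32 with SE 0.42 and adjusted p = 0.999). The 2 lowest and the highest values were all female, and the groups overlapped. Cx3cr1, a receptor of resident macrophages and patrolling monocytes, had 10.7, 5.36, 5.03 and 20.8 CPM in female replicates 1 to 4, against 12.2, 6.31, 6.05 and 6.66 CPM in male replicates 1 to 4 (edgeR log2 fold change 0.42 with SE 0.48 and adjusted p = 0.999). For Ccr2 and Cx3cr1 female replicate 4 was the highest library and female replicate 3 the lowest. The Ccr2 transcript shares 2.27% of its 50-base windows with other genes' transcripts. Of the 40 tested members 28 (70%) had a wider log2 range in females than in males, beside 65.2% of all tested genes. Among the 13 tested receptors 11 (84.6%) had a wider log2 range in females than in males, against 17 of 27 ligands (63%). The summed CPM of the 20 receptors was 368, 213, 187 and 443 in female replicates 1 to 4, against 316, 244, 288 and 336 in male replicates 1 to 4. The females lay on both sides of the males.

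Cxcr4 and Cxcr7 share the ligand Cxcl12, but Cxcr7 (also called Ackr3) takes the ligand up and does not signal through G proteins. Cxcr7 had 127, 79.4, 67.3 and 136 CPM in female replicates 1 to 4, against 66.9, 78.2, 95.7 and 72.3 CPM in male replicates 1 to 4. Its mean was 103 ± 34.2 CPM over the females and 78.3 ± 12.5 CPM over the males (SD, n = 4), with 2 females above every male (edgeR log2 fold change 0.39 with SE 0.24 and adjusted p = 0.871). Cxcr4 had 16.6, 10.8, 10.2 and 25.8 CPM in female replicates 1 to 4, against 13.5, 7.17, 12.2 and 9.11 CPM in male replicates 1 to 4 (edgeR log2 fold change 0.59 with SE 0.33 and adjusted p = 0.841). Again 2 females, replicates 1 and 4, exceeded every male and the other two lay among them. Without female replicate 4 the log2 fold change was 0.25 for Cxcr4 and 0.21 for Cxcr7. With the macrophage score as a covariate (added once the data had been seen), 5 of 40 members had an unadjusted p under 0.05 (12.5%, against 11.4% of all genes), namely Ccl2, Ccr1, Cxcr4 and Cxcr7 above 0 and Ccl12 below. With the muscle score instead, 2 of 40 did so (5%, against 9.21%), Ccl2 and Cxcr7, and none was called (0.128% of all genes). None of the 40 was called with the macrophage score (0.203% of all genes), and the smallest edgeR adjusted p was 0.192, for Ccl2.

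The highest values of many members fell in the library where the macrophage markers, a list that holds no member, were highest. The marker means of fibroblasts (10.36), mast cells (5.26), blood endothelium (5.79) and T cells (2.04) were also highest in this library, female replicate 4. So were those of B cells and of Langerhans and dendritic cells, a list that holds Xcr1. Neutrophil and fast muscle means were highest in males, and the keratinocyte mean was lowest in female replicate 4. Fibroblast markers ordered the 4 females as macrophage markers did. Female replicate 4 held the highest value of 21 of the 40 tested members (52.5%), against 19.7% of all tested genes. Without this library, 6 of 40 members had an unadjusted p under 0.05 (15%, against 7.66% of all genes) and none was called. The median log2 fold change of members was then -0.22, beside -0.01 over all genes, and 15 of 40 lay above 0. Leaving out the library that held the highest values of these members lowers their female means by construction. Male replicate 2 held the lowest value of 12 members (30%, against 15% of all genes) and female replicate 3 that of 9 (22.5%, against 21.2%). The macrophage marker mean was lowest in female replicate 3 and was not low in male replicate 2. When the macrophage mean was subtracted from log2 CPM in each library, 19 members (47.5%) had a narrower range over the 8 libraries than before, against 15.1% of all tested genes. The range of Ccl9 was 0.81 after subtraction and 1.84 before, and that of Ccr2 was 0.84 and 1.72. For Cx3cr1 these ranges were 1.08 and 2.03, and for Ccl8 1.25 and 2.13. These shares cannot be compared directly. The macrophage markers had a range of 1.69, and a gene that varied much less than that widens on subtraction, while the median range was 1.66 for members and 0.65 for all tested genes. The median range of members was 1.71 after subtraction. The part of macrophages, or of the other cell types named, in these members' levels was not tested.

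**Figure D4:**
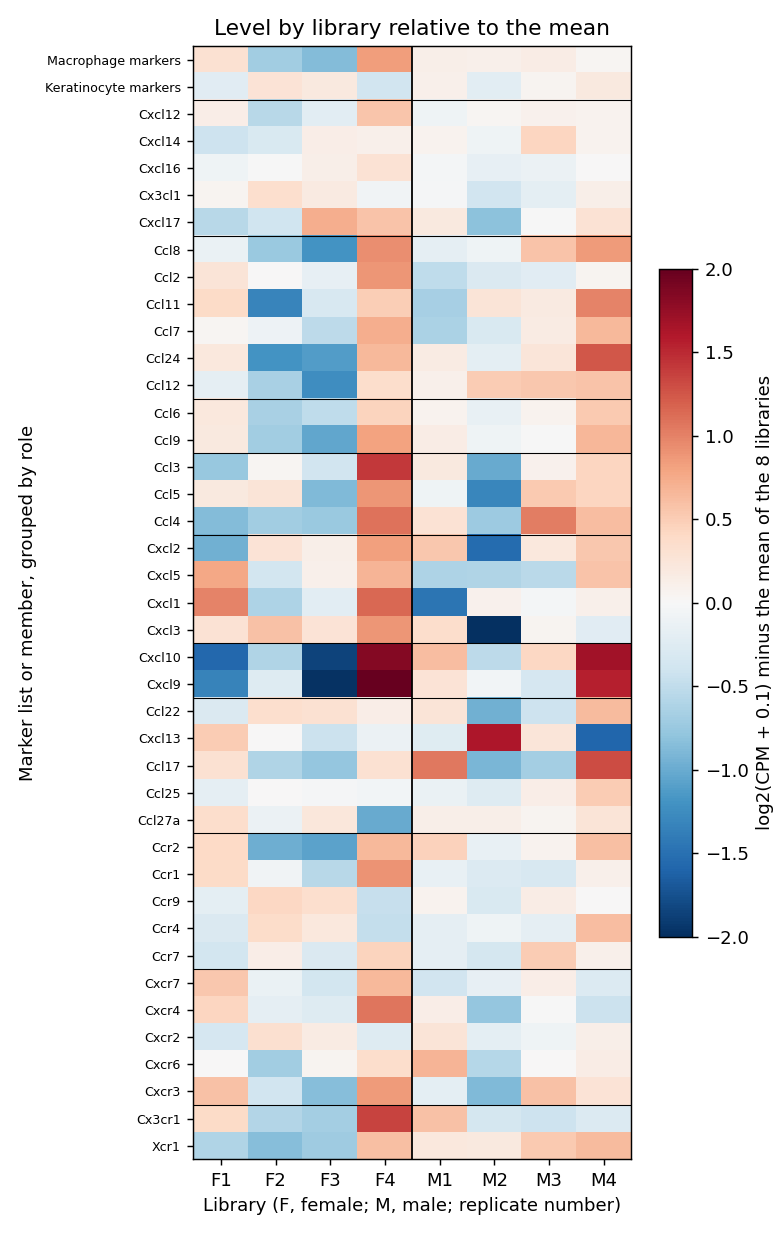
Levels of 39 tested members by library, grouped by role, as log2(CPM + 0.1) minus the mean of the 8 libraries, with females left of males and the macrophage and keratinocyte marker means on top (red, above the mean; blue, below). Most rows of the monocyte attractants and myeloid receptors are blue in F2 and F3 and red in F4, as the macrophage row is.

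**Figure D5:**
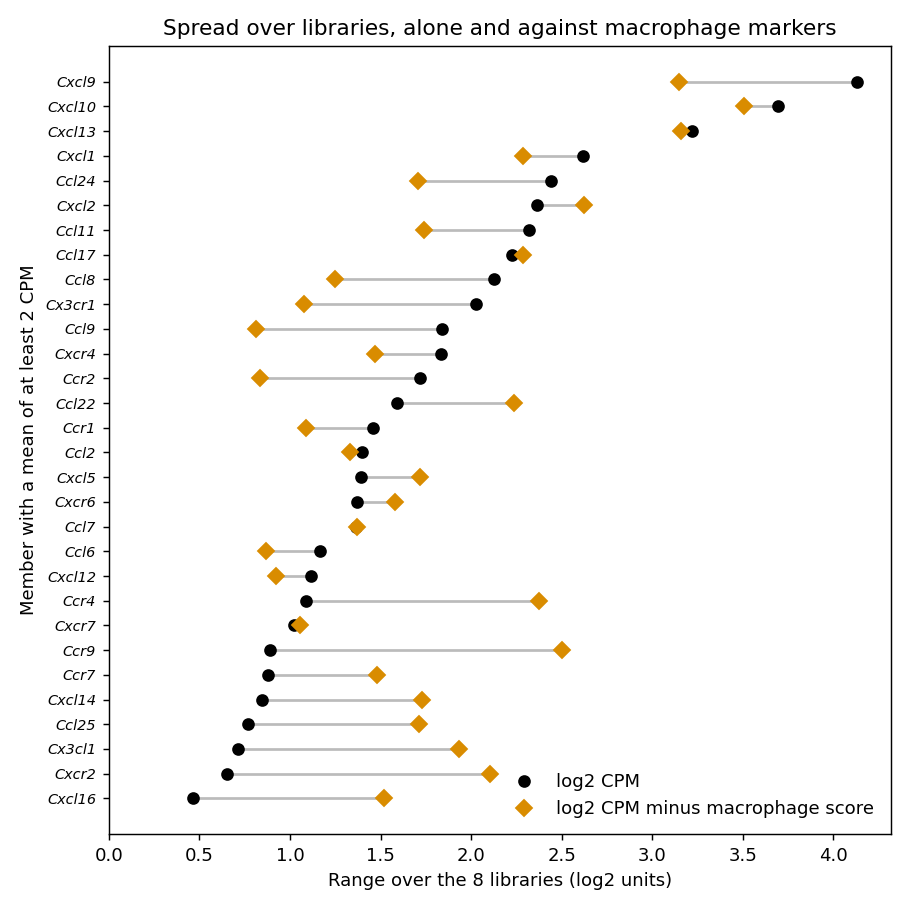
Range over the 8 libraries of log2 CPM (black circles) and of log2 CPM minus the macrophage marker mean (orange diamonds) for each of 30 members with a mean of at least 2 CPM. Ccl9, Ccr2 and Cx3cr1 shift left and Cxcl16, Cxcr2, Ccr9 and Cx3cl1 shift right.

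The same subtraction was made with the keratinocyte markers, and 8 of 40 members (20%) narrowed, against 18.4% of all tested genes, a share near the background. These markers' mean log2 CPM over 8 genes stood at 9.79, 10.29, 10.22 and 9.65 in female replicates 1 to 4, against 10.13, 9.81, 10.07 and 10.22 in male replicates 1 to 4. Cxcr2, best known as the receptor that draws neutrophils into tissue, had 8.54, 13.5, 12.01 and 9.02 CPM in female replicates 1 to 4, against 12.9, 9.41, 10.1 and 11.7 CPM in male replicates 1 to 4 (edgeR log2 fold change -0.03 with SE 0.18 and adjusted p = 0.999). Of its 50-base windows 6.77% occur in other genes' transcripts. Its range was 0.30 after the keratinocyte mean was subtracted and 0.65 before. Ccr9, the receptor of Ccl25 that is best known for homing to gut and thymus, had 8.602, 13.3, 12.5 and 7.13 CPM in female replicates 1 to 4, against 10.4, 7.97, 10.96 and 9.94 CPM in male replicates 1 to 4 (edgeR log2 fold change 0.08 with SE 0.22 and adjusted p = 0.999), with a range of 0.35 after subtraction and 0.89 before. For Ccr4 the ranges were 0.70 and 1.09, for Cx3cl1 0.55 and 0.72, for Ccl25 0.60 and 0.77 and for Ccl22 1.24 and 1.59. Those of Ccl27a (1.21 after and 1.35 before) and Ccl17 (2.08 and 2.22) changed less. These 8 are all the members that narrowed and are named by that outcome alone. As above, the shares cannot be compared directly, since the median range was 1.66 for members and 0.65 for all tested genes. Most members widened instead, among them Cxcl14 (1.05 after and 0.84 before) and Cxcl16 (0.94 and 0.46). Which cells held these transcripts was not tested.

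The neutrophil attractants, ligands of Cxcr2, were among the weaker members, with means of 2.38 CPM per kb for Cxcl1, 1.998 for Cxcl2, 1.84 for Cxcl3 and 1.82 for Cxcl5. Cxcl1 had 4.01, 1.25, 1.68 and 4.47 CPM in female replicates 1 to 4, against 0.647, 2.09, 1.91 and 2.11 CPM in male replicates 1 to 4 (edgeR log2 fold change 0.76 with SE 0.51 and adjusted p = 0.906). Cxcl2 had 1.65, 4.02, 3.58 and 5.900 CPM in female replicates 1 to 4, against 4.83, 1.07, 3.82 and 4.85 CPM in male replicates 1 to 4 (edgeR log2 fold change 0.06 with SE 0.50 and adjusted p = 0.999). Cxcl3 had 2.003, 2.49, 1.99 and 3.09 CPM in female replicates 1 to 4, against 2.09, 0.267, 1.69 and 1.37 CPM in male replicates 1 to 4 (edgeR log2 fold change 0.82 with SE 0.49 and adjusted p = 0.863). These 3 genes lie on chromosome 5, as does Cxcl5, which had no matched promoter window. The promoters of Cxcl1, Cxcl2 and Cxcl3 all carry the NF-kB motif shown above. Female replicate 4 was the highest library for all 3. Male replicate 2 was the lowest for Cxcl2 and Cxcl3, and male replicate 1 for Cxcl1. Cxcl5, made by epithelial cells, had 4.595, 2.03, 2.87 and 4.32 CPM in female replicates 1 to 4, against 1.69, 1.71, 1.800 and 3.97 CPM in male replicates 1 to 4 (edgeR log2 fold change 0.59 with SE 0.38 and adjusted p = 0.893). All 4 tested members of this group had log2 fold changes above 0 and none was called. Cxcl2 and Cxcl3 share 61 windows of 50 bases with each other. Of 7 listed neutrophil markers 6 were in the files and 3 were tested (S100a8, S100a9 and Csf3r), with none called. The summed level of the list was 19.4, 28.8, 29.6 and 37.8 CPM in female replicates 1 to 4, against 68.9, 10.4, 23.8 and 45.5 CPM in male replicates 1 to 4. Elane was at 0 in every library, Mpo and Retnlg were near 0, and the part of neutrophils in these levels was not tested.

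Ligands induced by interferon showed the widest range of the family. Cxcl9, a ligand of Cxcr3, which activated T cells carry, had 0.471, 1.11, 0.265 and 6.25 CPM in female replicates 1 to 4, against 1.64, 1.28, 1.04 and 4.11 CPM in male replicates 1 to 4 (edgeR log2 fold change 0.02 with SE 0.94 and adjusted p = 0.999). Cxcl10, another ligand of Cxcr3, had 0.825, 1.71, 0.662 and 9.72 CPM in female replicates 1 to 4, against 4.13, 1.82, 3.55 and 8.67 CPM in male replicates 1 to 4 (edgeR log2 fold change -0.48 with SE 0.89 and adjusted p = 0.999). Replicate 4 of each sex was the highest library of its sex for both genes, and the ranges were 4.13 for Cxcl9 and 3.69 for Cxcl10 on the log2 scale. These 2 libraries set the fold changes. Without female replicate 4 the log2 fold change was -1.71 for Cxcl9 and -2.09 for Cxcl10, and without male replicate 4 it was 0.63 for Cxcl9 and 0.044 for Cxcl10, with neither gene called. The interferon-induced factor Irf7 had 32.1, 28.7, 9.62 and 68.3 CPM in female replicates 1 to 4, against 18.8, 16.8, 24.8 and 77.2 CPM in male replicates 1 to 4, highest in the same 2 libraries. The part of an interferon signal in these levels was not tested. Cxcr3 had 0.441 to 1.66 CPM in females and 0.428 to 1.36 CPM in males, and Cxcl11, another of its ligands, had 0 to 7 counts per library and was not tested.

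Ligands that place T and B cells showed no common pattern between the sexes. Ccl22, a ligand of Ccr4 made by dendritic cells, had 5.302, 8.27, 8.12 and 7.13 CPM in female replicates 1 to 4, against 7.86, 3.32, 4.85 and 10.2 CPM in male replicates 1 to 4 (edgeR log2 fold change 0.14 with SE 0.33 and adjusted p = 0.999). Ccl17, the other ligand of Ccr4, had 2.24, 1.15, 1.02 and 2.24 CPM in female replicates 1 to 4, against 3.83, 0.909, 1.09 and 4.604 CPM in male replicates 1 to 4 (edgeR log2 fold change -0.66 with SE 0.57 and adjusted p = 0.972). Both were highest in male replicate 4 and lowest in male replicate 2. Ccr4 itself had 1.81 to 3.33 CPM in females and 2.24 to 3.97 CPM in males, Cxcr6 1.71 to 3.62 CPM in females and 1.87 to 4.58 CPM in males and Ccr7, the receptor for lymph node homing, 1.71 to 3.05 CPM in females and 1.71 to 3.22 CPM in males. Cxcl13, a B cell attractant, had 6.66, 4.67, 3.399 and 4.28 CPM in female replicates 1 to 4, against 3.88, 14.5, 5.51 and 1.47 CPM in male replicates 1 to 4 (edgeR log2 fold change -0.42 with SE 0.60 and adjusted p = 0.999). Its highest and its lowest library were both male. Its receptor Cxcr5 had 12 counts over the females and 6 over the males, and the B cell genes Cd79a and Ms4a1 reached 0.231 CPM at most. Ccl25 had 1.83 to 2.08 CPM in females and 1.71 to 2.99 CPM in males. Xcr1, the receptor of cross-presenting dendritic cells, had 0.231 to 0.81 CPM in females and 0.588 to 0.833 CPM in males (edgeR log2 fold change -0.75 with SE 0.44 and adjusted p = 0.858), and its ligand Xcl1 9 counts in all.

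The skin-homing axis could not be read well from these counts. Ccl27a, the keratinocyte ligand of Ccr10, had 1.83, 1.29, 1.68 and 0.656 CPM in female replicates 1 to 4, against 1.54, 1.55, 1.47 and 1.71 CPM in male replicates 1 to 4 (edgeR log2 fold change -0.21 with SE 0.31 and adjusted p = 0.999). However, 66.4% of the 50-base windows of its transcript also occur in transcripts of other genes, among them Ccl27b and Gm13306, and the authors' counts leave out reads that align to several places. The same holds for Ccl19 (59.1% of windows shared), Ccl21a (71.6%), Ccl21b (100%) and Ccl27b (98.1%), all listed at 0 counts in every library. Values of these genes and of Ccl21c, also at 0, are therefore uncertain. Ccl26, Ccl28 and Cxcl15 were likewise at 0, with 0, 0.271 and 0.529% of their windows shared. A count of 0 allows up to 3 counts per library, or 0.116 to 0.177 CPM, as a limit from counting error alone. Ccr10 had 8 counts over the females and 14 over the males. The remaining members with too few counts for a test were Ccr6 (29 counts over the females and 38 over the males) and its ligand Ccl20 (34 over the females and 24 over the males). Ccr1l1 had 16 counts over the females and 7 over the males, Ccl1 had 5 over the females and 11 over the males, and Ccr8 had 5 over the females and 6 over the males. Cxcr1 had 1 count, in a female.

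Genes that surround the family were compared by lists, and edgeR called none of them. Of 5 atypical or related receptors named otherwise, 4 lay below 0 and 1 above, and Darc (Ackr1), which presents chemokines on vessels, had 15.01 to 25.3 CPM in females and 12.6 to 20.7 CPM in males. Of these, Ccrl1 (log2 fold change -0.14, SE 0.13) had the smallest p. The platelet chemokine gene Pf4 (Cxcl4), which macrophages also express, had 79.5, 41.7, 32.4 and 137 CPM in female replicates 1 to 4, against 74.04, 83.3, 83.01 and 81.5 CPM in male replicates 1 to 4 (edgeR log2 fold change -0.15 with SE 0.42 and adjusted p = 0.999). It followed the order of the macrophage markers in females. Ppbp (Cxcl7) stayed under 2 CPM, with 0.441 to 1.504 CPM in females and 0.784 to 1.09 CPM in males. Of 21 signal transducers 16 lay above 0 and 5 below, with none at an unadjusted p under 0.05. Over all 14790 tested genes 7795 lay above 0 and 6995 below. Those of smallest p were Rgs1 (edgeR log2 fold change -0.40 with SE 0.21 and adjusted p = 0.824), which damps Gi signals, and Prex1 (edgeR log2 fold change 0.30 with SE 0.17 and adjusted p = 0.852), a Rac activator. Of the 5 tested inducing cytokines, Tnf had 4.42, 4.296, 3.75 and 4.28 CPM in female replicates 1 to 4, against 2.69, 1.76, 2.29 and 3.13 CPM in male replicates 1 to 4 (edgeR log2 fold change 0.76 with SE 0.20 and adjusted p = 0.509). All 4 females exceeded all 4 males, and the call over all genes was not reached. Such a lack of overlap between the sexes, in either direction, was found for 4.73% of all tested genes. Il6, Il17a, Ifng, Il4, Il13 and Lta had too few counts. Of 10 inducing transcription factors 8 lay above 0, and Nfkbia, the NF-kB inhibitor that NF-kB induces, had 125 to 133 CPM in females and 104 to 121 CPM in males (edgeR log2 fold change 0.16 with SE 0.07 and adjusted p = 0.749). Again the sexes did not overlap and the call was not reached, while for the other genes of these lists the sexes overlapped. Of 6 tested proteases that cut chemokines, Mmp9 had the smallest p, with 6.36 to 13.7 CPM in females and 0.856 to 6.52 CPM in males (edgeR log2 fold change 1.04 with SE 0.54 and adjusted p = 0.815). Of 7 chemokine-like genes, 3 lay above 0 and 4 below, and of 4 heparan sulfate carriers 1 lay above and 3 below, with none at an unadjusted p under 0.05.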

How the data were processed

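Polyadenylated RNA of 4 female and 4 male paws was sequenced as single 50 bp reads from about 500 ng total RNA with a stranded kit, per the labels' protocols. The submitters' processing notes name bcl2fastq, TopHat2, HTSeq and build mm9. The sources used here give no versions, annotation or strand setting. The authors deposited whole-number read counts per gene symbol, not normalized, 1 file per library. Between 45.2 and 48.7% of all lines' counts were alignments marked as not unique, and of the remaining reads 18.03 to 21.1% fell in no annotated feature. The counter's summary lines stayed out of library sizes.

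Counts were filtered with filterByExpr, scaled by TMM and tested with edgeR 4.0.16 in R 4.3.3 (glmQLFit and glmQLFTest, robust, sex as the sole term, 4 against 4 libraries). SE was derived from the fold change and its F statistic. Log2 CPM used a prior count of 2. Alternatives were other size factors, DESeq2 1.42.0, limma-voom (limma 3.58.1), other filters, the replicate number as a block, muscle and macrophage marker scores as covariates, and leaving out each library. The fit was tested on simulated data. Pairs of libraries of 1 sex differed by a chi-square per degree of freedom of 13.2 or more, so none looked like a repeat. Lengths and 50-base windows shared between transcripts came from GENCODE M21, which matched 58 members (Cxcr7 as Ackr3), and the windows were compared with transcripts, not with the genome.

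The members, lists and tests were chosen with earlier results of these data known. Named were the 10 members of highest mean CPM, the 10 of smallest p, the 5 of widest and narrowest range among those with at least 2 CPM, the members of set ligand and receptor pairs, and members that failed the filter. Of the tested members 1 is counted in all totals but not reported here by name or in figures. Of other lists the members of smallest p were eligible. Elane, Mpo, Retnlg, Irf7, Cd79a and Ms4a1 were added after their values were seen.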

Additional observations from a re-analysis of the deposited data

Results flagged for a closer look

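Each tested member and the 3 summed levels (ligands, receptors and all members) were looked at within each sex, 86 groups of 4 libraries. In 7 of them a single library stood well apart, by a gap that fills most of the spread of its sex. About 1 in 20 groups does so by chance. Of the 7, 6 were male. In log2 CPM, male replicate 1 had 0.576 for Ccl12, while the other males had 0.977 to 1.04. These values rest on 28 counts against 35, 35 and 40, a gap that counting error alone can give. Cx3cr1 in that library was 3.62, while the others had 2.62 to 2.76. Its Cxcl1 was -0.427, below the 1.004 to 1.14 of the rest. Male replicate 2 had 0.222 for Cxcl2, below the other males at 1.97 to 2.31. Male replicate 4 had 2.02 for Ccr4, above the others at 1.22 to 1.32. Its Cxcl5 was also 2.02, with the others at 0.839 to 0.924. Female replicate 4 had 0.370 for Ccl4, while the other females had -1.59 to -1.42, on 31 counts against 4, 6 and 6.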

How the results depend on the processing

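No member was called by edgeR under any alternative run, nor by DESeq2 or limma-voom. The filter passed 40 members, 51 with no filter and 31 where 4 or more libraries had to reach 2 CPM. Over all genes, edgeR called 14 (6 higher in females and 8 higher in males), DESeq2 112 (57 and 55), edgeR with the replicate block 7 (2 and 5) and edgeR with the macrophage score, added after the data were seen, 30 (14 and 16). Same-numbered females and males deviated from the mean of their sex with correlations of -0.31, -0.17, -0.09 and -0.27. Differently numbered libraries were not correlated, so these values cannot decide whether the replicate numbers pair the libraries. With 1 library left out, 8 to 16 genes were called (fewest without male replicate 3 or male replicate 4), and 2 to 7 were higher in females (2 without either of these, 3 without male replicate 1). Of the members, 0 to 6 then had an unadjusted p under 0.05, with 3 without female replicate 3 or male replicate 4, 6 without female replicate 4, and 0 without male replicate 1, 2 or 3. The smallest adjusted p of a member was 0.427, for Xcr1 without female replicate 4.

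Signs of some uncalled members turned, and the cause was not tested. Cxcl12 had -0.00405 with DESeq2 size factors, -0.00737 with upper quartile factors, -0.00403 in DESeq2, -0.053 in limma-voom and -0.048 with the replicate block. Cxcl9 had -0.00843 with upper quartile factors, -0.011 in DESeq2, -0.73 in limma-voom, -0.69 with the replicate block and -0.28 with the macrophage score. That score gave 0.00651 for Ccr7 and -0.076 for Ccr9, and the muscle score -0.025 for Ccr9, 0.085 for Cxcl13 and -0.023 for Cxcl2. With 1 library left out, log2 fold changes that turned ranged as follows: Ccl22 -0.094 to 0.43, Ccl25 -0.28 to 0.017, Ccl27a -0.38 to 0.016, Ccl3 -0.38 to 0.58, Ccl5 -0.13 to 0.47, Ccl7 -0.24 to 0.33, Ccl9 -0.64 to 0.017, Ccr4 -0.25 to 0.15, Ccr7 -0.22 to 0.16, Ccr9 -0.061 to 0.22, Cx3cr1 -0.17 to 0.72, Cxcl10 -2.09 to 0.044, Cxcl12 -0.22 to 0.16, Cxcl13 -0.75 to 0.38, Cxcl17 -0.00092 to 0.41, Cxcl2 -0.25 to 0.30, Cxcl9 -1.71 to 0.63, Cxcr2 -0.16 to 0.058, Cxcr3 -0.19 to 0.44 and Cxcr6 -0.36 to 0.083. Depth limits the members under 1 CPM, of which there were 22.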
